A study of Mus musculus with 3 samples.

Results

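The promoters of the cytoplasmic ribosomal protein genes were followed in open chromatin data from mouse limb mesenchymal progenitors (MPs), as a reference set of promoters used in growing cells of every kind. Members were the autosomal protein-coding genes with the symbol Rpl or Rps followed by digits and an optional a, l or x, together with Rplp0, Rplp1, Rplp2 and Rpsa. The rule used names and gene classes alone and no measured value. It found 76 of 20807 autosomal protein-coding genes, 43 of the large subunit, 30 of the small subunit and 3 of the stalk. A promoter peak was called in every library for 74 of the 76 (97.4%) and for 14267 of all 20807 genes (68.6%). The 2 members without a peak in any library were Rpl10l and Rpl3l.

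Ribosomal proteins fold around ribosomal RNA to form the large and small subunits of the ribosome, and the stalk proteins recruit the elongation factors. Their genes lie scattered over the chromosomes, are transcribed in all growing cells, and their mRNAs mostly begin with a pyrimidine tract through which translation is tuned to nutrient supply. Many carry small nucleolar RNAs (snoRNAs), guides for the chemical modification of ribosomal RNA, in their introns, and many have left processed retrocopies elsewhere in the genome.

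Accessibility had been measured by single-nucleus ATAC-seq, in which a transposase cuts open DNA, in 3 libraries, 1 for each of the stages E12.5, E14.5 and E16.5 (E, embryonic day). All 3 came from C57BL/6J embryos of genotype Hic1CreERT2/CreERT2;Rosa26LSLtdTomato/tdTomato, whose dams had been given 7.5 mg tamoxifen in 300 uL sunflower oil by gavage at embryonic day 10, so every group carried both knock-in alleles and the same drug. The Cre is expressed from the Hic1 locus, and the sorted cells were tdTomato-positive and negative for CD45, CD117, CD31, CD11b, F4/80 and Ter119, from pooled embryos of both sexes. Forelimbs were used at E12.5 (digested with Dispase) and at E14.5, and a segment around the elbow at E16.5 (the later samples digested with Collagenase A, Pronase and DNase). With 1 library per stage no test was possible, and the stages cannot be told apart from their libraries, the elbow segment used last or the Dispase used first.

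The libraries held 8294, 20023 and 14048 nuclei in order of stage, with 87048167, 204289151 and 413425059 counts and medians of 6004, 8575 and 26694 per nucleus. Between 151 and 401 nucleus barcodes were shared by each pair of libraries, at most 2.85% of the smaller. Peaks over protein-coding promoters took 39.5%, 51.8% and 37.3% of the autosomal counts. All 6 limb mesenchyme markers (Prrx1, Twist1, Pdgfra, Pdgfrb, Tbx5 and Hic1) had a promoter peak in every library, none of 4 blood markers had one in any, and the hindlimb markers Tbx4 and Pitx1 had one in every library of this forelimb tissue. Of 4 genes each, those of muscle had peaks in 3, 1 and 2, those of endothelium in 4, 2 and 4, those of epithelium in 3, 2 and 4 and those of Schwann cells in 3 at each stage. Promoter peaks were fewest for muscle, endothelium and epithelium at E14.5, the stage with the fewest called peaks, and the part of these cells in the results below was not tested.

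The sequence around the start was searched for features that members might have in common. RefSeq promoters of the GRCm38.p6 assembly, 250 bases before to 50 after the annotated start, were matched to 54 of the 74 members with a peak. For Rpl41, Rps19 and Rps21, which are among the most accessible members of their subunits, and for the stalk gene Rplp0, the strand of the gene is printed 5′ to 3′ from 150 bases before the start, with the last 25 bases transcribed. Capitals mark 6 motifs searched on both strands, namely CCGGAAG (the core bound by ETS factors), GGGCGG (the GC box), AAGATGGC (as bound by YY1), GCGCATGC (as bound by NRF1), CCAAT (the CCAAT box) and TCTCGCGA (most of a palindromic promoter element, so that 1 copy can match on both strands). No sequence is printed for Rpl7 and Rps14, the members of each subunit with the highest mean accessibility. The stretches are chr10:128549144-128549318 on the minus strand for Rpl41, and on the plus strand chr7:24884442-24884616 for Rps19, chr2:180257229-180257403 for Rps21 and chr5:115559317-115559491 for Rplp0.
Rpl41: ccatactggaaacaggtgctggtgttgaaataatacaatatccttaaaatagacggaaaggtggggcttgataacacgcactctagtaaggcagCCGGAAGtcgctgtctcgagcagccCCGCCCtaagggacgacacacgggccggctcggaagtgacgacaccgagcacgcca
Rps19: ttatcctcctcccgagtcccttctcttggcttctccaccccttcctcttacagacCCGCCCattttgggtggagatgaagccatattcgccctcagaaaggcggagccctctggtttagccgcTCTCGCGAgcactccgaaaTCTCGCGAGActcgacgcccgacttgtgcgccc
Rps21: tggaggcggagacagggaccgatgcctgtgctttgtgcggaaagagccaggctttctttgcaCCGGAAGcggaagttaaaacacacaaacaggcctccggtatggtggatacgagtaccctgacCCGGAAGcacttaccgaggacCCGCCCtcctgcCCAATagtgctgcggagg
Rplp0: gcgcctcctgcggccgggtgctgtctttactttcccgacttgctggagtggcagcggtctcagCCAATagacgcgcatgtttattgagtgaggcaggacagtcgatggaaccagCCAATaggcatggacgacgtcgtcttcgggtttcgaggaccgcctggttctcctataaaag
The ETS core stood once in Rpl41 and in 2 copies in Rps21. TCTCGCGA stood in 2 copies in Rps19, of which only the nearer, reaching the start, matched on both strands. The printed stretch of Rplp0 held 2 CCAAT boxes and none of the other motifs. No motif was common to all 4 printed stretches, while GGGCGG was present in all 4 genes when the whole RefSeq promoter was searched.

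Across the 54 members with a sequence, the annotated first base was C in 19 (35.2%), against 14.9% of 10951 promoters that had a peak in every library and 13.8% of 16457 in the whole table. A C followed by at least 4 more pyrimidines, the form of the tract at which translation is tuned, was found in 12 (22.2%), against 2.29% of promoters with a peak. Within 10 bases of the start lay CTTTC in 10 members, CTTTT in 3 and TCTTT in 8, and at least 1 of these short pyrimidine motifs in 14 (25.9%), against 3.94%. The 3 shares were thus above those of promoters at large, without a test, although most RefSeq starts of members carried no full tract.

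On either strand, the ETS core CCGGAAG was present in 23 of the 54 members (42.6%) against 16.8% of promoters with a peak. The element TCTCGCGA was present in 9 (16.7%) against 2.13%. GGGCGG was found in 31 (57.4%) against 65.3%, CCAAT in 17 (31.5%) against 37.9%, AAGATGGC in 4 (7.41%) against 4.18% and GCGCATGC in 2 (3.70%) against 5.19%. TATAAA between 40 and 20 bases before the start was held by 0 of the 54 members and by 1.23% of promoters with a peak. That share is too small for this count to set the members apart. In Rplp0 TATAAA stood after the annotated start, within the printed transcribed bases. Counts tied to the start, those of first bases and pyrimidine tracts included, rest on RefSeq positions that were not checked in these cells. GC content had a median of 58.7% in the members and 61.3% in promoters with a peak, and CpG dinucleotides stood at 0.906 and 0.756 of the number that base composition gives. A match of letters is a description of this window and not a measured binding site.

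Members with the ETS core had a median of 20.5 CPM per kb and those without it 18.2, where CPM is counts in promoter peaks per 1000000 counts in autosomal regions called in every library, averaged over stages, and the kb are those of called peak width. With the element TCTCGCGA the median was 18.3 and without it 19.2. For members with GGGCGG it was 20.5 and for those without 16.4. The differences are given without a test.

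Peaks over the members held an ordinary number of counts for promoters. Their median was 29.0, 39.3 and 34.6 CPM at the 3 stages, beside 31.9, 39.6 and 33.1 over all promoters with a peak. Ranked by mean CPM among the 14267 promoters, the median member stood at percentile 50.4. Per kb of called width the members stood higher, with medians of 16.5, 25.3 and 15.5 CPM per kb against 14.4, 21.5 and 13.1, and the median member was at percentile 65.4. Their peaks were the narrower at E12.5 and E14.5, with median widths of 1757, 1590.5 and 2329 bp against 2031, 1691 and 2316 bp.

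**Figure D1:**
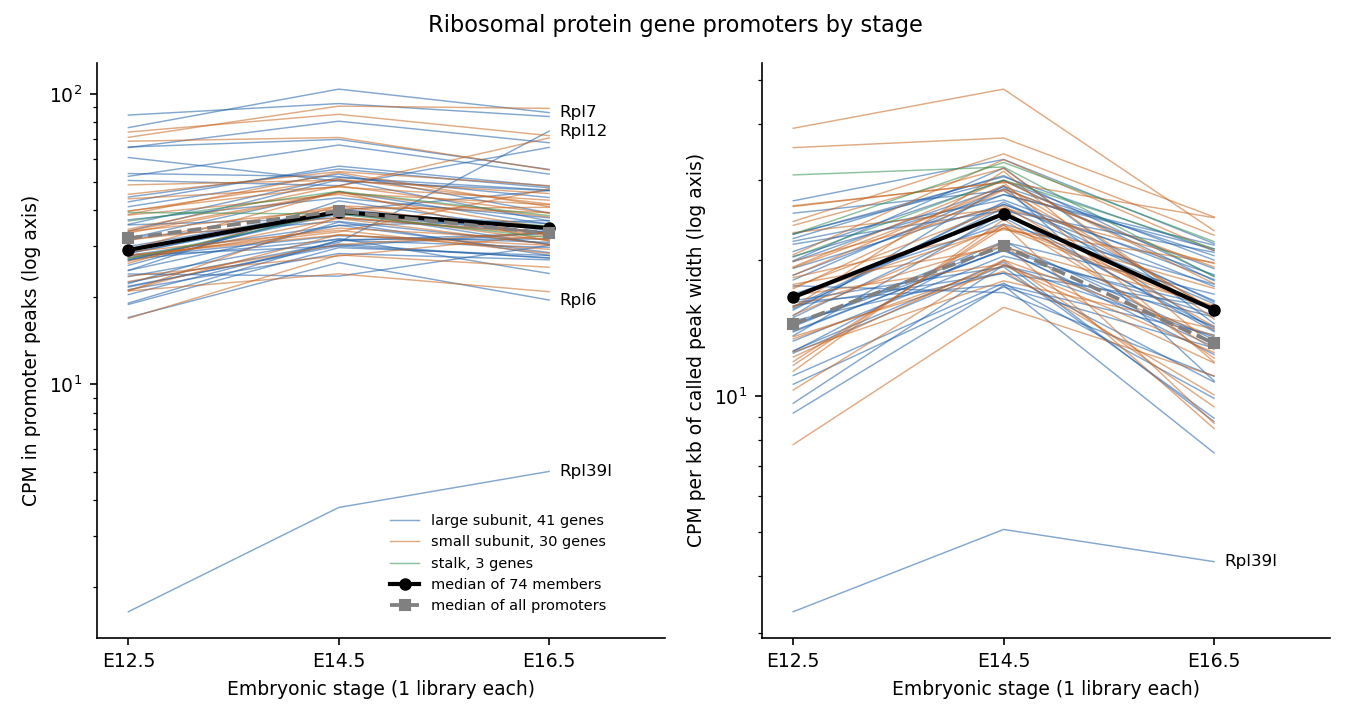
CPM (left) and CPM per kb of called peak width (right), both on log axes, of the 74 members with a promoter peak in every library, 1 line per gene coloured by subunit; black circles join the member medians and grey squares the medians of all 14267 promoters. The member medians run through 29.0, 39.3 and 34.6 CPM, and Rpl39l lies below all other lines at 1.65 to 5.02 CPM.

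The large and small subunits had similar medians. Those of the 41 large subunit genes were 27.8, 38.9 and 33.8 CPM, and those of the 30 small subunit genes 31.4, 41.2 and 36.1 CPM. Per kb of called width they were 15.7, 24.8 and 15.1 for the large and 17.3, 25.3 and 15.1 for the small subunit. The ranges of the subunits overlapped at every stage.

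Other genes of protein synthesis and housekeeping were read in the same way. A promoter peak was present in every library for 78 of 78 genes of the mitochondrial ribosome, 38 of 39 of the proteasome, 17 of 17 translation factors and other pyrimidine-tract genes, and 18 of 18 ribosome biogenesis genes. Median CPM per kb ranged over these lists between 15.5 and 19.7 at the earliest stage, between 22.1 and 26.4 at the middle one and between 13.9 and 17.6 at the latest. The members lay within each of these ranges.

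The 5 members with the highest mean CPM were Rpl7, Rpl41, Rps14, Rps19 and Rpl18, and 4 of these 5 had a peak that also covered the promoter of another protein-coding gene. Rpl7, a large subunit protein, had 76.7, 104 and 86.4 CPM at the 3 stages in a peak of 4564, 4334 and 4886 bp that it shared with Rdh10, a retinol dehydrogenase of limb retinoic acid synthesis. Rpl41, the shortest of the ribosomal proteins, had 84.7, 92.8 and 83.7 CPM in a peak shared with Zc3h10. Rps14, a small subunit protein, had 71.0, 90.9 and 89.3 CPM over 2 peaks shared with Ndst1, together 6882, 4549 and 9434 bp wide. Counts in such peaks cannot be assigned to one of the genes. Member exons also have near-identical retrocopies, and how reads that map to both were treated is not given in the sources used here.

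Rps19, a small subunit protein needed for maturation of its ribosomal RNA, was the only one of the 5 with a peak of its own, at 74.0, 85.2 and 71.9 CPM. Per kb it had 39.1, 47.7 and 23.2 CPM, which placed its mean at percentile 99.4 of all promoters. Rps21, also of the small subunit, stood close to it at 35.4, 37.2 and 24.9 CPM per kb, at percentile 98.1. These promoters were thus the densest of the set, whereas Rpl7 and Rps14, with their wide and shared peaks, stood at percentiles 66.9 and 32.7 per kb.

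Rpl18 had 65.5, 80.7 and 68.0 CPM over 2 peaks, shared with Sphk2. In all, 18 of the 74 members (24.3%) shared a promoter peak with another protein-coding gene, against 19.2% of all promoters with a peak. The 18 had medians of 32.7, 43.2 and 43.8 CPM, and the 56 with peaks of their own 28.3, 39.0 and 33.4 CPM, while per kb the values of the shared peaks were 16.5, 24.4 and 14.8 and those of the others 16.5, 26.2 and 15.5.

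The 5 lowest members were Rpl39l, Rpl6, Rps28, Rps7 and Rpl24. Rpl6 had 17.0, 26.3 and 19.5 CPM, Rps28 20.98, 24.1 and 20.9, Rps7 16.9, 27.9 and 25.3, and Rpl24 18.9, 29.6 and 27.8. These 4 stood between percentiles 22.7 and 30.6 of all promoters. Rpl39l stood far under them, at 1.65, 3.77 and 5.02 CPM at the 3 stages (percentile 1.77), in a peak of 494, 743 and 1165 bp.

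The members whose symbol ends in l are paralogs with their own expression patterns. Rpl10l replaces X-linked Rpl10 in male germ cells, and Rpl3l is a form of Rpl3 in striated muscle; neither had a promoter peak here. Rpl39l, the germ cell relative of Rpl39, had the low values above. Rps27l, a p53-responsive relative of Rps27, differed from these 3, with 45.2, 54.1 and 48.4 CPM at percentile 74.5. Of the 4, Rps27l alone lay among the main genes of the set, above Rps27 itself with 28.6, 34.0 and 28.3 CPM.

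The genes of the stalk lay close together. Rplp0, the stalk base, had 39.1, 38.6 and 32.0 CPM at the 3 stages, Rplp1 36.5, 46.3 and 38.2, and Rplp2 27.1, 39.1 and 35.2. Per kb, all 3 were in the upper part of the set, with percentiles of 92.4, 90.05 and 84.8. Rpsa, the small subunit protein also known as the laminin receptor precursor, had 38.3, 45.1 and 34.5 CPM at percentile 83.8 per kb.

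Small nucleolar RNA genes lay inside 27 of the 74 members (36.5%), against 1.66% of all genes with a promoter peak. The 27 hosts had medians of 31.3, 39.8 and 34.5 CPM, and the other 47 of 28.3, 39.2 and 34.6. The ranges overlapped, with hosts from 17.0 to 65.7 CPM and the others from 1.65 to 84.7 CPM at E12.5. Rpl4 held the most, with 5.

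From E12.5 to E14.5 the members were higher, a little more than promoters in general. The log2 ratio of CPM was above 0 in 69 of 74 (93.2%, against 78.3% of all promoters), with a median of 0.40 and a range from −0.27 to 1.19, beside a median of 0.26 over all promoters. A ratio of at least 1.5-fold higher was seen in 14 members (18.9%), against 10.7% of all promoters, and at least 1.5-fold lower in 0, against 5.3%. The count higher depended on the scale and stayed near the share of all promoters on the others, with 2 members (2.70%, against 2.36%) per promoter count, 1 (1.35%, against 1.76%) after centring on the median promoter, 34 (45.9%, against 39.9%) per kb of called width and 3 of 38 (7.89%, against 7.86%) among promoters at or above the median CPM. Among the 14 were Rpl31, Rpl35, Rpl5, Rpl6, Rpl32, Rps15a, Rpl23, Rps7, Rps23, Rpl39l, Rpl35a and Rpl24. Per kb of called width the ratio was above 0 in 73 of 74 (98.6%, against 94.9%), and the medians were 0.57 for the members and 0.51 for all promoters.

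From E14.5 to E16.5 they were lower, by a little less than promoters in general. The median log2 ratio was −0.19, beside −0.27 over all promoters, and it was above 0 in 14 of 74 (18.9%), close to the 18.1% of all promoters. At least 1.5-fold higher stood 1 member, Rpl12, where 5.19% of all promoters did, and at least 1.5-fold lower stood 0, where 8.75% did. Per kb the latter count was 44 members (59.5%), where 64.0% of all promoters were as low. Per kb no member was above 0, as were 1.49% of all promoters, with medians of −0.62 and −0.68.

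Between the first and the last stage the median log2 ratio was 0.19, beside 0.00440 over all promoters, and 59 of 74 members were above 0 (79.7%, against 50.6%). At least 1.5-fold higher were 8 members (10.8%), against 6.13% of all promoters, and at least 1.5-fold lower were 0, against 8.02%. Among promoters at or above the median CPM, 0 of 38 members were as low over this span, against 2.34%. Per kb the counts were 0 higher, against 1.76%, and 9 lower (12.2%, against 13.9%). Per kb only 28 of 74 were above 0 (37.8%, against 28.6%), with medians of −0.098 and −0.18. The members exceeded the median of all promoters by 0.14, 0.079 and 0.18 at the 3 steps, values that no choice of library scaling alters, and per kb by 0.064, 0.064 and 0.080. Other gene lists mostly lay above all promoters too, though under the members. The translation factors had median log2 ratios of 0.38, −0.25 and 0.10, ribosome biogenesis genes 0.32, −0.25 and 0.11 and the proteasome 0.31, −0.25 and 0.048. The mitochondrial ribosome had 0.29, −0.28 and 0.073, of which the −0.28 lay below all promoters. Among promoters at or above the median CPM, 38 of them members, the excess of the members was 0.059, 0.054 and 0.095. For the 60 members whose peak position matched between libraries it was 0.14, 0.051 and 0.16, against the median of all promoters, matched or not. The direction of the members themselves did depend on the scale, since the whole-span median was above 0 for CPM and below 0 per kb, and the step to E16.5 was just above 0 when libraries were scaled to all promoter counts (0.023) or to the median promoter ratio (0.070).

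**Figure D2:**
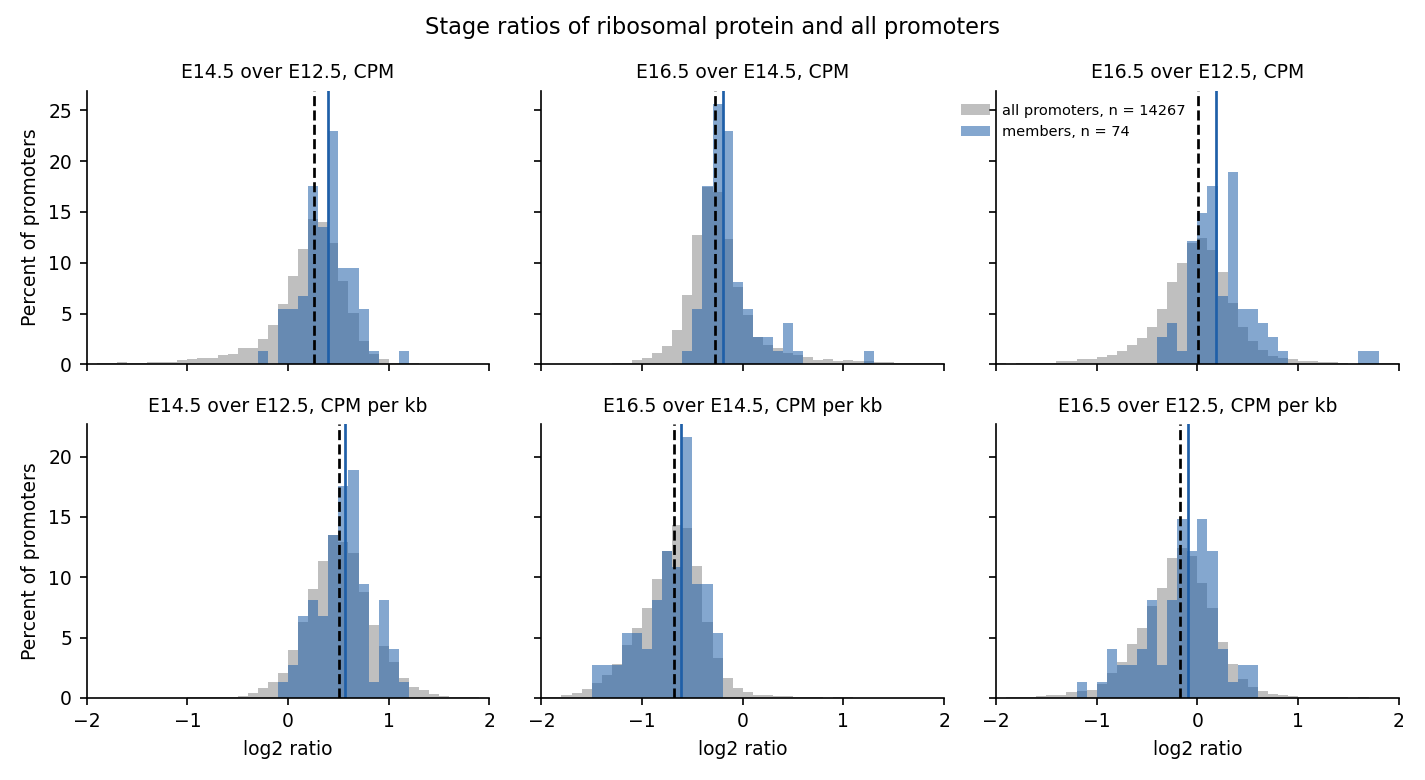
Distribution of log2 ratios between stages for the 74 members (blue) and all 14267 promoters (grey), as percent of promoters per bin of 0.1, for CPM (upper row) and CPM per kb of called width (lower row); solid lines mark member medians and dashed lines those of all promoters. The 2 medians differ by at most 0.183 in any panel, and the members spread less than promoters at large in the upper row.

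The members also varied less among themselves than promoters at large. The interquartile range of their log2 ratios was 0.28 at the first step, 0.21 at the next and 0.32 over the whole span, against 0.40, 0.32 and 0.45 over all promoters. Per kb the contrast was smaller, at 0.30, 0.37 and 0.42 against 0.40, 0.40 and 0.45. All promoters included weaker ones, down to 0.0405 CPM at E12.5 where the lowest member had 1.65. The spread was not compared at matched CPM. By standard deviation of the log2 ratios of CPM at the same steps, most of the other gene lists spread about as little. It was 0.24, 0.28 and 0.35 for the members, 0.22, 0.22 and 0.26 for the mitochondrial ribosome and 0.20, 0.25 and 0.30 for translation factors. Ribosome biogenesis genes had 0.27, 0.24 and 0.34, while the proteasome spread more, at 0.37, 0.32 and 0.62. The order of the members by CPM was kept in large part, with Spearman's rho of 0.90, 0.82 and 0.80 across the 74 between the stages of each step, where all promoters had 0.94, 0.93 and 0.91. These points share their libraries and, in part, their called widths.

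The most common course was lowest at E12.5 and highest at E14.5, seen in 45 of 74 members (60.8%), against 36.9% of all promoters. In 57 members (77.0%, against 69.0% of all promoters) CPM was highest at E14.5, in 14 (18.9%, against 13.7%) it was highest at the last stage and in 3 (4.05%, against 17.3%) at the first. Per kb, 73 of 74 were highest at E14.5 (98.6%, against 93.9%), and the common course differed, with 46 of 74 lowest at E16.5 (62.2%, against 71.2%). The exception was Rpl3, a large subunit protein at the peptidyl transferase centre, named after its values were seen, with 17.5, 16.9 and 11.1 CPM per kb.

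The largest differences between E12.5 and E16.5 went with the called width of the peak. Rpl12, a large subunit protein beside the stalk, had 22.5, 30.9 and 74.6 CPM at the 3 stages, a log2 ratio of 1.73 over the span (95% interval 1.63 to 1.83, counting error only). Its peak was called over chr2:32960900-32962923 at E12.5 and reached 1364 bp downstream of the 5′ end of the gene, but 6535 bp downstream at E16.5, a width of 7544 bp that also took in the promoter of Lrsam1. Per kb the log2 ratio was −0.17, so the density of counts was not higher.

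Rps2, a small subunit protein, went from 39.6 and 48.3 to 70.7 CPM, a log2 ratio of 0.83 (0.76 to 0.91), while its peak widened from 1503 to 5942 bp over the promoters of Ndufb10 and Rnf151 and the ratio per kb was −1.15. Rps15, of the small subunit, went from 27.8 and 33.5 to 47.2 CPM, a log2 ratio of 0.77 (0.67 to 0.86), with a peak widened from 2051 to 4690 bp toward Apc2 and a ratio per kb of −0.43. In all 3 genes CPM was thus higher at E16.5 in a wider peak, while the density of counts was lower. Rpl39l was the exception among the 4 largest, with a log2 ratio of 1.61 (1.24 to 1.995) and still 0.37 per kb, from the lowest level of the set. Its peak widened as well, from 494 to 1165 bp, and no interval was computed for the value per kb.

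Of the 8 members at least 1.5-fold higher at E16.5 than at E12.5, 6 had peaks whose position did not match between libraries at a reciprocal overlap of 50%, and 3 were higher per kb. Those 3 were Rpl23, Rps23 and Rpl39l. The peak position matched in 60 of the 74 members (81.1%), against 84.4% of all promoters. The median log2 ratio over the span was 0.17 in these 60 (0.16 above that of all promoters, matched or not) and 0.51 in the 14 others. The peaks of these 14 were wider at E16.5 by a median of 1.21 on the log2 scale. Called width enters both the split and the counts, so these medians are a description.

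Among the members lowest at E16.5 relative to E12.5 were Rpl13a, Rps21 and Rplp0. Rpl13a, of the large subunit, had 60.5, 50.1 and 46.5 CPM, a log2 ratio of −0.38 (−0.45 to −0.31). Rps21 had 68.8, 70.9 and 54.8 CPM (−0.33, from −0.39 to −0.26). For Rplp0 the ratio was −0.29 (−0.37 to −0.20). All 3 were also lower per kb, with log2 ratios of −0.46, −0.51 and −0.75 in the order Rpl13a, Rps21 and Rplp0. None reached 1.5-fold lower in CPM. Their widest peaks were called wider at E16.5. In the same order they reached 1897, 825 and 826 bp downstream at E12.5 and 2006, 881 and 1292 bp at E16.5.

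**Figure D3:**
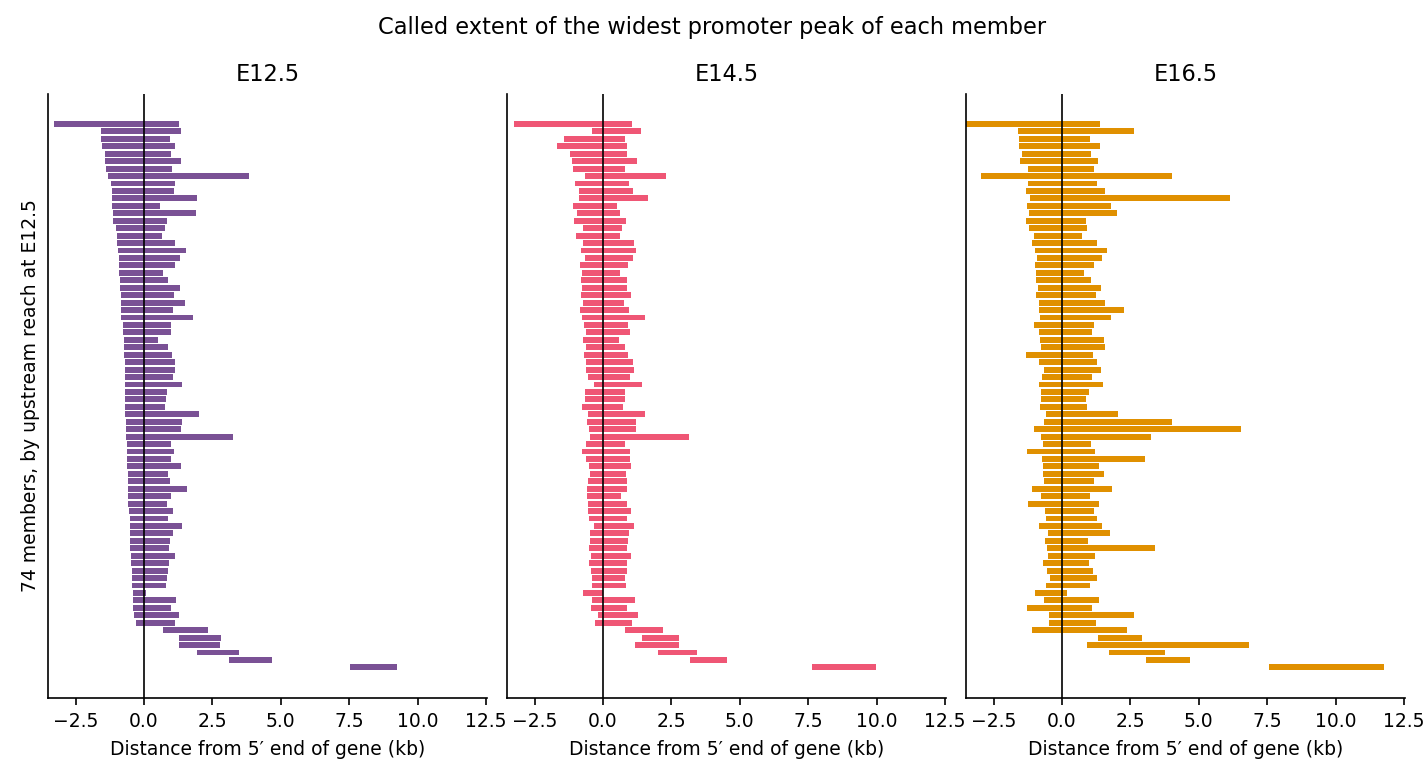
Called extent of the widest promoter peak of each of the 74 members at each stage, 1 bar per gene, drawn in kb from the annotated 5′ end of the gene (vertical line, transcription to the right) and ordered by upstream reach at E12.5. The median reach was 688.5, 618.5 and 835 bp upstream and 1090.5, 942.5 and 1346.5 bp downstream in order of stage.

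Member peaks mostly lay over the start. Measured from the outermost annotated 5′ end of the gene, they reached further into the gene than away from it. Starts annotated further inside a gene add to the downstream reach in this measure, and no reach was computed for all promoters. The widest peak covered the annotated 5′ end in 68, 67 and 69 of the 74 members, and in most others, Rpl3, Rpl18 and Rps24 among them, it lay downstream, at or beside another annotated start. That of Rpl39l at E14.5 ended 7 bp upstream of the annotated 5′ end. At E16.5 the median reach was 835 bp upstream and 1346.5 bp downstream, the widest of the 3 stages, as it was for the width of promoter peaks in general. Across members, the log2 ratio of width and that of CPM had a Spearman's rho of 0.28, 0.43 and 0.39 at the 3 steps, and across all promoters 0.47, 0.54 and 0.53. Both values of a pair come from the same called peaks.

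The member peaks together held 0.256% (0.254 to 0.257), 0.323% (0.322 to 0.324) and 0.293% (0.293 to 0.294) of the counts in regions called in every library. As a share of counts in protein-coding promoter peaks this was 0.560%, 0.610% and 0.643%. The share of promoter counts thus went up at each step, whereas the share of all counts was highest at E14.5. The peaks covered 148571, 129413 and 201118 bp, and intervals cover counting error only.

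In single nuclei a given member promoter was usually without a fragment. Over the 74 members, the median share of nuclei with at least 1 fragment was 10.2%, 16.6% and 30.7% at the 3 stages, in the order of depth per nucleus. Each nucleus was then thinned to 1286 fragments in the autosomal peaks called in its library, which left out 2073, 508 and 212 shallower nuclei. The medians became 2.85%, 4.52% and 3.53%. At equal depth the share was thus highest at E14.5, as CPM was, and no longer at E16.5. Such depth counts only fragments in called peaks, and peak lists differed between libraries. E14.5 had 102459 peaks over all chromosomes, against 190443 at E12.5 and 213613 at E16.5. Promoter peaks took 51.8% of its autosomal counts, against 39.5% and 37.3%. The thinned shares are therefore not like for like between stages.

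**Figure D4:**
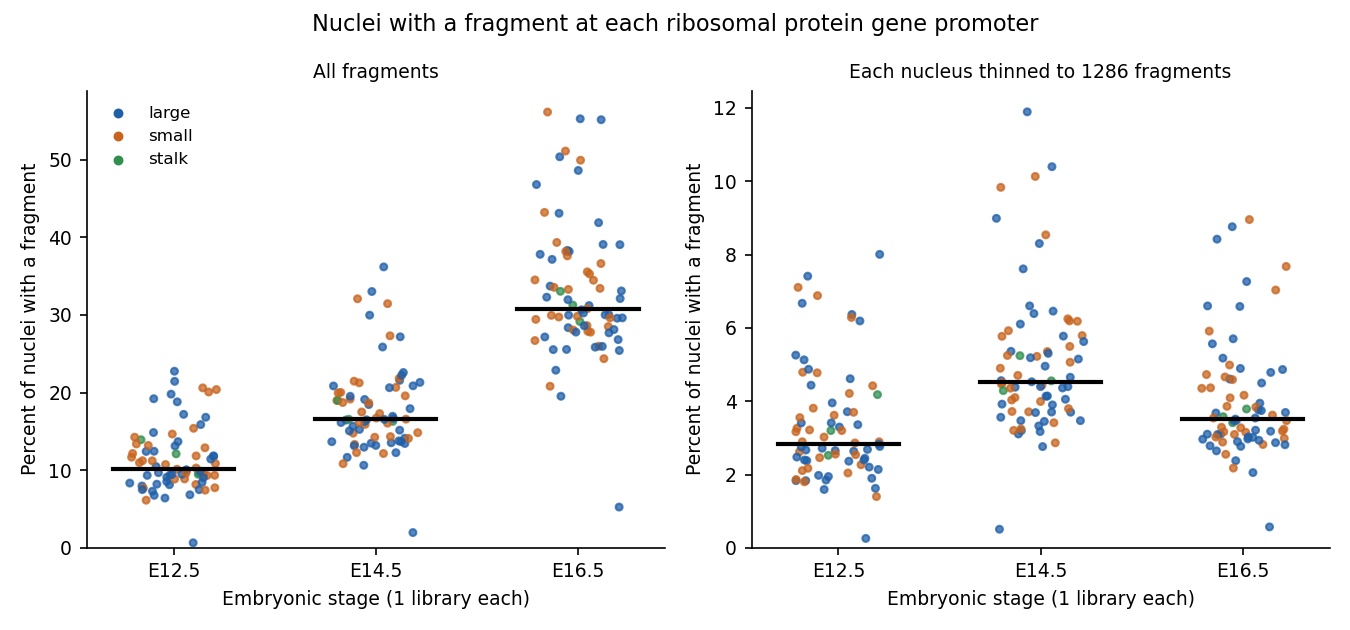
Percent of nuclei with at least 1 fragment at each of the 74 member promoters, with all fragments (left) and after thinning each nucleus to the same number of fragments (right), 1 point per gene coloured by subunit and bars at the medians. The medians are 10.2%, 16.6% and 30.7% on the left and 2.85%, 4.52% and 3.53% on the right.

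At equal depth the lowest share was that of Rpl39l, with 0.257%, 0.507% and 0.571% at the 3 stages, and the highest were 8.01% (Rpl41), 11.9% (Rpl7) and 8.95% (Rps14). For Rplp0 they were 4.18%, 4.56% and 3.41%, for Rplp1 3.20%, 5.24% and 3.79% and for Rpsa 3.17%, 5.25% and 3.54%. The median mitochondrial ribosome gene had 2.42%, 3.72% and 2.66%, and the median translation factor 3.78%, 6.09% and 4.60%. At this depth no member had a fragment in 10% of nuclei or more, except Rpl7, Rpl41 and Rps14 at E14.5.

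Taken over all member peaks, a nucleus had fragments in a median of 5 of 78, 12 of 76 and 25 of 76 peaks at the 3 stages, at full depth. Nuclei with no fragment in any of them made up 11.3% (10.6 to 11.97), 0.370% (0.290 to 0.464) and 0.299% (0.216 to 0.404). At equal depth the mean was 2.59, 3.86 and 3.06 member fragments per nucleus, with a variance 1.16, 1.12 and 1.15 times the mean. The spread between nuclei was thus slightly above that of counting. Of all entries above 0 in member peaks, 76.1%, 83.3% and 70.7% were a single fragment.

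The nuclei differed in how much of their signal lay in promoters, and the members followed it. At equal depth, the share of fragments in promoter peaks other than those of members lay between 27.2% and 47.1% in the E12.5 library (5th to 95th percentile), between 40.5% and 60.3% in that of E14.5 and between 29.4% and 48.1% in that of E16.5. In the bottom quintile of nuclei by this share, members held 1523 fragments per 1000000 at E12.5 (1463 to 1584), and in the top quintile 2555 (2477 to 2634), a ratio of 1.68 (1.60 to 1.77). The ratio was 1.47 (1.44 to 1.51) at E14.5, with 2499 and 3685 fragments, and 1.61 (1.57 to 1.66) in the E16.5 library, with 1925 and 3109.

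The promoters that set the order had ratios of 1.61, 1.41 and 1.53 between the same quintiles, so the members had slightly higher ratios, although at E12.5 that of the other promoters lay within the members' interval. As a share of other promoter fragments the members made up 0.535%, 0.601% and 0.637% in the bottom and 0.558%, 0.631% and 0.675% in the top quintile at the 3 stages. When nuclei were ordered by promoters on odd-numbered chromosomes alone, members on even-numbered chromosomes had ratios of 1.44 (1.32 to 1.57), 1.35 (1.297 to 1.40) and 1.52 (1.45 to 1.60), and other promoters on even-numbered chromosomes 1.33, 1.26 and 1.41, of which the value at E12.5 again lay within the members' interval. Counts on different chromosomes thus went together.

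**Figure D5:**
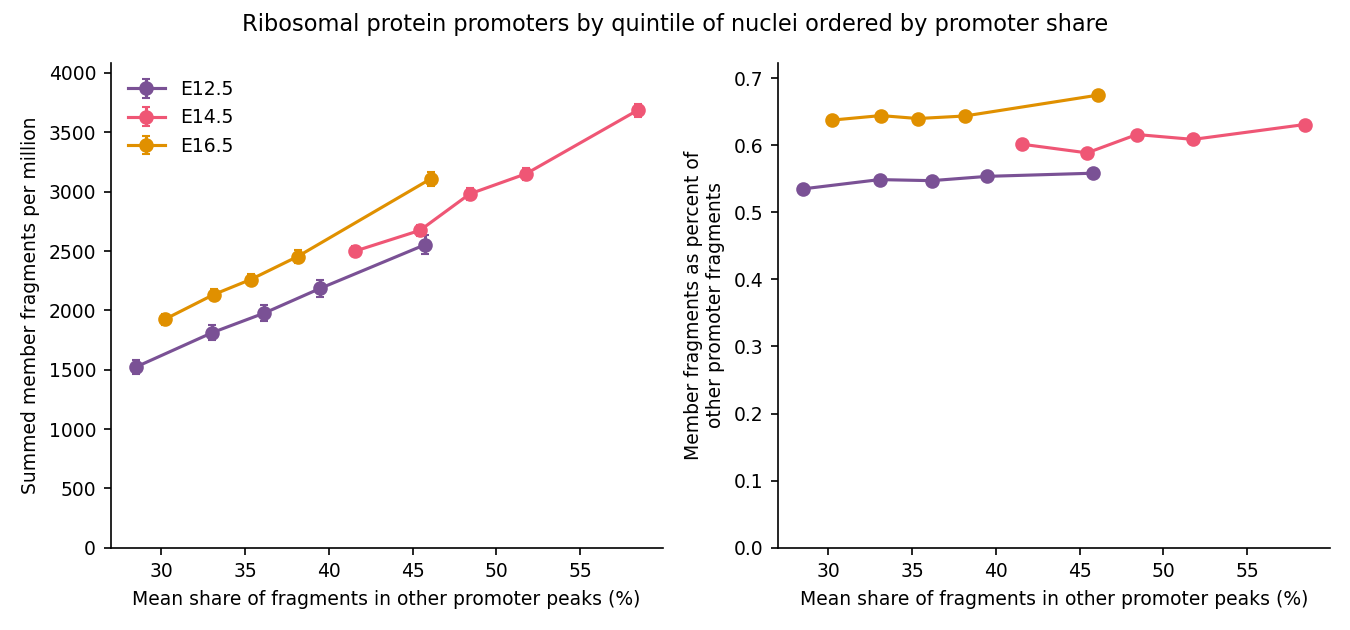
Summed member fragments per 1000000 (left, bars are exact 95% counting intervals) and member fragments as percent of other promoter fragments (right) in quintiles of nuclei ordered by the share of fragments in other promoter peaks, at equal depth. In each library the left curve climbs from the first to the last quintile, by 1.68, 1.47 and 1.61 times in order of stage, while the right curve is close to flat.

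Across nuclei, the member share and the promoter share had a Spearman's rho of 0.26, 0.25 and 0.25 and Pearson's r of 0.27, 0.27 and 0.32 in 6221, 19515 and 13836 nuclei. Nuclei of a library share their preparation, and both shares are parts of the same 1286 fragments, so these are descriptions. The mitochondrial ribosome had ratios of 1.72, 1.40 and 1.57 between top and bottom quintile, the proteasome 1.86, 1.43 and 1.53 and the translation factors 2.06, 1.62 and 1.78, each with its own peaks left out of the order. The limb mesenchyme markers had 1.49, 1.25 and 1.46. The members lay within or close to the range of the other housekeeping lists.

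By gene, the ratio of top to bottom quintile was above 1 in 71 of 73, 71 of 74 and 72 of 74 members at the 3 stages, with Rpl39l left out at E12.5 for want of a fragment in the bottom quintile. The medians were 1.69, 1.49 and 1.61, close to the 1.64, 1.42 and 1.53 of all promoters. The interval lay wholly above 1 in 45, 65 and 66 members. Over all promoters, whose own fragments help to set the order, the ratio was above 1 in 88.7%, 83.5% and 88.2% and the interval wholly above 1 in 54.4%, 66.1% and 63.6%, against 61.6%, 87.8% and 89.2% of members. It lay wholly below 1 in 1 member at E12.5, Rplp0, named after its value was seen, with a ratio of 0.646 (0.423 to 0.976) from 62 and 40 fragments, while at E14.5 and E16.5 Rplp0 had 1.76 (1.42 to 2.17) and 1.38 (1.05 to 1.81).

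The members with the highest ratios at E16.5 were Rpsa at 2.34 (1.75 to 3.15), Rpl6 at 2.22 (1.48 to 3.39) and Rps27 at 2.18 (1.58 to 3.03). Other promoters together had 1.53 at that stage. At E12.5 the same genes had 1.77 (1.11 to 2.87), 1.15 (0.604 to 2.21) and 0.783 (0.492 to 1.24). At E14.5 they had 1.65 (1.36 to 2.0004), 1.42 (1.096 to 1.83) and 1.31 (1.05 to 1.65). Intervals thus lay above 1 at all 3 stages for Rpsa and at the later 2 for Rpl6 and Rps27. Among those with the lowest ratios at E16.5 were Rpl39l at 0.579 (0.249 to 1.28) and Rpl37a, of the large subunit, at 0.879 (0.607 to 1.27). Both intervals included 1. Rpl37a had 1.57 (0.903 to 2.77) at E12.5 and 1.31 (1.04 to 1.66) at E14.5, the latter interval above 1. At E16.5 the intervals of Rpsa, Rpl6 and Rps27 lay above those of Rpl39l and Rpl37a, all of them genes picked as extremes of that ratio. At the earlier stages the interval of Rpl37a overlapped those of Rpsa, Rpl6 and Rps27. The order of members at large was not compared between stages.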

How the data were processed

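Single-nucleus ATAC-seq had been run on 3 libraries of sorted forelimb MPs, 1 per stage. The deposited values are raw counts of transposition events for each peak in each nucleus, made by the authors with Cell Ranger ATAC against mm10 (GRCm38). The labels give version 1.1.0, and the file headers 1.2.0 for the E16.5 library and 1.0.1 for the earlier ones. Peak calling was separate for the libraries, so widths differ.

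Promoters ran from 1000 bp upstream to 100 bp downstream of any start in the GENCODE M21 basic annotation, and a gene took the counts of every autosomal peak overlapping this by 1 bp. CPM is per 1000000 counts in autosomal regions called in all 3 libraries, of which there were 84660 of 266531 over all chromosomes. A gene lacking a peak in any library got no ratio, and no pseudocount was used. Fragments are these counts, or cut sites, divided by 2 and rounded up. Exact 95% Poisson, binomial and conditional ratio intervals were computed on fragments. They cover counting error only, since with 1 library per stage no replicate error, test or p-value could be had. Nuclei were thinned without replacement to 1286 fragments in the autosomal peaks of their own library, the 25th percentile at E12.5. All 42365 deposited nuclei were used, no doublet caller was run, and the deepest 5% were left out as an alternative. A promoter counted as past the threshold at 1.5-fold.

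The members and gene lists were chosen with earlier results of these data known. The rule named the 5 highest and 5 lowest members by mean CPM, the 4 highest and 4 lowest ratios of E16.5 over E12.5, the stalk genes, Rpsa, paralogs with a symbol ending in l, members lacking a peak, the 3 highest and 3 lowest by ratio of top to bottom quintile of promoter share at E16.5, and, for sequences, the 2 highest of each subunit and Rplp0, without chromosome 18. A few genes that this rule names are not reported here. Results were recomputed under 26 other settings. Python 3.11.15, numpy 2.4.6, scipy 1.17.1, pandas 2.3.3 and matplotlib 3.10.9 were used, and the interval and thinning code was tested on simulated data.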

Additional observations from a re-analysis of the deposited data

Results flagged for a closer look

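Ribosomal protein genes on the X chromosome lay outside the set, which was autosomal because the pooled embryos were of both sexes, and all 4 examined had promoter peaks in every library. They were picked out as signal in data that no comparison used, and no control library exists. Rpl10, whose autosomal copy Rpl10l had no peak, had 34.0, 39.2 and 40.001 CPM at the 3 stages in order. Rpl39, the parent of Rpl39l, had 19.5, 27.4 and 25.8 CPM. Rpl36a had 30.0, 32.4 and 24.6 CPM, and Rps4x had 9.85, 13.3 and 13.2 CPM. The first 3 lay within the range of the autosomal members other than Rpl39l, and Rps4x lay under it. The mix of sexes was not measured, and its bearing on the CPM of X-linked genes was not tested.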

How the results depend on the processing

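The median log2 ratio of the members from E12.5 to E14.5, 0.40 as reported, was 0.58 per count in any autosomal peak, 0.19 per count in promoter peaks, 0.14 after centring on the median promoter and 0.57 per kb of called width. From E14.5 to E16.5, −0.19 as reported, the same settings gave −0.45, 0.023, 0.070 and −0.62, so the direction reversed under both promoter scalings. Over the whole span, 0.19 as reported, all autosomal counts gave 0.11 and the per kb value reversed to −0.098. Binarised entries gave 0.36 and −0.19 for the 2 steps. Leaving out the deepest 5% of nuclei gave 0.43, −0.17 and, over the whole span, 0.28. Thinning nuclei to equal depth gave 0.47, −0.12 and 0.28. Promoters at or above the median CPM gave 0.33, −0.23 and 0.092. Members whose peaks held no other promoter gave 0.41 for the first step, adding ribosomal protein genes outside the symbol rule gave 0.41 and −0.21 for the 2 steps, and members with peaks of matched position gave −0.22 for the later step and 0.17 over the whole span. The other 10 medians moved by less than 1 half-width of the counting interval of the summed ratio.

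The 14 members at least 1.5-fold higher at E14.5 than at E12.5 became 2 per promoter count, 1 after centring, 34 per kb and 3 of 38 at or above the median CPM, where all promoters had 2.36%, 1.76%, 39.9% and 7.86%. From E14.5 to E16.5 the 1 higher member became 5 (6.76%, against 7.53% of all promoters), 6 (8.11%, against 8.31%) and, per kb, 0 (against 0.210%), and the count lower went from 0 to 44 per kb (59.5%, against 64.0%). Over the whole span the 8 higher became 0 per kb (against 1.76%) and 4 of 38 at or above the median CPM (10.5%, against 2.9997%), and the count lower went from 0 to 9 per kb (12.2%, against 13.9%). At or above the median CPM the count lower stayed at 0 of 38 members, against 1.14%, 4.30% and 2.34% of promoters for the 2 steps and the whole span.

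The members' share of counts (0.256%, 0.323% and 0.293% by stage) was 0.221%, 0.316% and 0.240% of all autosomal counts in peaks, 0.242%, 0.303% and 0.271% binarised, and 0.249%, 0.322% and 0.295% without the deepest nuclei. The median share of nuclei (2.85%, 4.52% and 3.53%) was 10.2%, 16.6% and 30.7% without thinning, 5.84%, 8.98% and 6.94% at 2 times the depth, and 4.71%, 7.53% and 6.51% when cut sites were thinned. The ratio of top to bottom quintile of promoter share was 1.81 without thinning at E12.5, against 1.68, and 1.44, 1.35 and 1.52 by stage when the share came from odd-numbered chromosomes, against 1.68, 1.47 and 1.61. It stayed above 1 under every setting. The causes of these shifts were not tested.

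With 1 library for each stage there was no replicate to leave out. No paired analysis was possible because each stage had 1 library, and no result came from a test. Depth limits the shares of nuclei, and called widths that differed between libraries limit every stage ratio.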

Other observations

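Ribosomal protein genes that the symbol rule misses also had promoter peaks in every library. Fau, which makes a ubiquitin-like fusion with a small subunit protein, had 24.5, 35.5 and 29.1 CPM at the 3 stages in order. Rack1, the scaffold protein on the small subunit, had 35.1, 51.8 and 49.4 CPM, and Rps3a1 had 31.1, 46.3 and 35.9. The paralogs Rpl7l1, Rpl22l1 and Rpl36al had 23.5, 39.4 and 53.2 CPM at E12.5, all above the 1.65 CPM of Rpl39l. Over all 7 such genes the median log2 ratios were 0.48, −0.29 and 0.21 from E12.5 to E14.5, from E14.5 to E16.5 and over the whole span.

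Retrocopies of ribosomal protein genes mostly had no peak at their 5′ ends. Of 259 autosomal pseudogenes named for an Rpl or Rps gene, 43 (16.6%) had a peak in the same window in at least 1 library. In all 3 libraries 13 had one. By stage the counts were 31, 15 and 33, fewest at E14.5, the stage with the fewest called peaks. Other pseudogenes were not read for comparison. Another protein-coding promoter lay in the peak of 1 of the 43. The highest without one was Rpl30-ps6, with 12.5, 13.6 and 34.7 CPM, chosen after its values were seen.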
